A study of Capra hircus and Bos taurus with 7 samples.

Results

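The let-7 and miR-98 family of microRNAs (miRNAs) was followed through small RNA libraries of extracellular vesicles, the membrane-bound particles that cells shed into fluids such as milk. Members were the rows named let-7a to let-7i, on either arm, together with miR-98, which gave 10 of the 364 mature miRNAs listed for every library. Rows carry the bovine prefix bta in goat libraries too: bta-let-7a-5p, bta-let-7a-3p, bta-let-7b, bta-let-7c, bta-let-7d, bta-let-7e, bta-let-7f, bta-let-7g, bta-let-7i and bta-miR-98, given below without it. All 10 passed the filter on low counts. The vesicles had been purified by size exclusion chromatography from powders made up in warm water. The groups were a commercial bovine (Bos taurus) milk powder with 1 library, a skimmed goat (Capra hircus) milk powder with 3 libraries (A, B and C) and a whole goat milk powder with 3 libraries (A, B and C). No genotype, age, feed or lot is given for any group. The origin of the lettered libraries within a powder is not described, and p-values below rest on a spread among libraries that may be technical only. Milk vesicles come from several cell types, and a change in how many vesicles a cell type gives cannot be told apart from a change in the miRNA inside them.

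Let-7 is among the most conserved miRNA families of animals. Its members share a seed near the 5′ end, the stretch that pairs with target mRNAs, and differ at few other positions. Mature let-7 accumulates as cells differentiate and represses growth-promoting mRNAs such as those of RAS genes, MYC and HMGA2, while the RNA-binding protein LIN28 blocks maturation of most let-7 precursors in stem and progenitor cells. Each precursor hairpin gives a guide strand, here let-7a-5p and the members named without an arm, and a passenger strand such as let-7a-3p, which is mostly degraded. Let-7 miRNAs are regularly found among the abundant miRNAs of milk and of epithelial cells.

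Library depth ranged from 5675489 reads in the bovine powder to 11963849 in whole goat library C. None of the 70 values of the family (10 members in 7 libraries) was a whole number within 1e-06, against 192 of 750 values of at least 1000 reads among the other miRNAs, so every member carried fractional reads. How reads were split between near-identical members is unknown, and the values of single members are uncertain to that extent. The milk and mammary epithelium list (9 of 9 markers found) summed to 277470 CPM (reads scaled to a common total of miRNA reads) in the bovine library, 236872 to 281003 CPM in skimmed and 271858 to 322346 CPM in whole goat powder. The leukocyte list (5 of 5 found) summed to 105 CPM in the bovine library, 3156 to 3379 CPM in skimmed and 2749 to 2869 CPM in whole goat powder. MiR-142-3p and miR-150 were at 0 in the bovine library. Over the goat libraries they also reached 0, with highest values of 26.9 and 17.8 CPM. Of the red blood cell list, 2 of 4 markers were found, summing to 284 CPM in the bovine library, 8778 to 10532 CPM in skimmed and 9672 to 9956 CPM in whole goat powder. MiR-16b made up nearly all of this sum, at 283 CPM in the bovine library and 8762 to 10507 CPM over the goat libraries. MiR-486 had 0.176 CPM in the bovine library and 15.6 to 72.8 CPM in goat, and miR-451 and miR-144 were not listed. The liver (1 of 1 found), muscle (1 of 3) and endothelial (1 of 2) markers reached at most 49.9, 120 and 43.6 CPM in any goat library and were at 0, 0.352 and 0 CPM in the bovine library.

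The family's leading member in every library was let-7a-5p, the guide strand of let-7a. It stood at 132424 CPM in the bovine library, at 159274, 135468 and 135715 CPM in skimmed goat libraries A, B and C, and at 126716, 123770 and 102518 CPM in whole goat libraries A, B and C. It was the most abundant of all 364 miRNAs in each of the 7. The second member in goat was let-7f, at 74046, 69107 and 71041 CPM in the skimmed and 68407, 62233 and 62233 CPM in the whole libraries, where it held places 2 to 5 among all miRNAs. Next came let-7b, at 73732, 60875 and 42263 CPM in the skimmed and 45910, 49951 and 35382 CPM in the whole libraries. Its highest goat value, in skimmed A, was 2.08 times its lowest, in whole C.

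**Figure D1:**
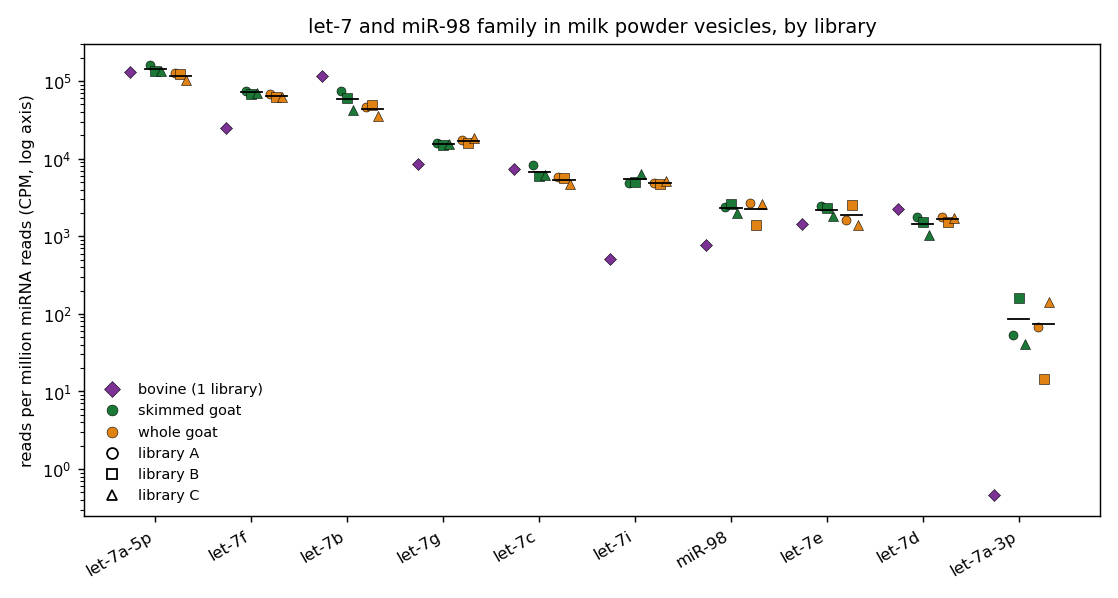
Level of each family member in each library, in CPM on a log axis, ordered by the mean of the 6 goat libraries; each point is a library and each bar the mean of 3 goat libraries. The goat points of let-7f lie within 1.19-fold of each other while those of let-7a-3p span 11.1-fold, and the bovine point falls far below the goat points for let-7i and let-7a-3p.

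Below these leaders the goat order ran let-7g, let-7c, let-7i, miR-98, let-7e and let-7d. Let-7g had 16119, 14918 and 15342 CPM in the skimmed and 17199, 15760 and 18474 CPM in the whole libraries. Neighbours in the order were separated in all 6 goat libraries for let-7a-5p over let-7f, for let-7b over let-7g (3.15-fold by mean), for let-7g over let-7c (2.67-fold) and for let-7i over miR-98 (2.26-fold), with no overlap of their ranges. Let-7f exceeded let-7b in all 6 goat libraries, yet their ranges over the libraries overlapped. The other 3 neighbouring pairs were not separated by the spread: let-7c exceeded let-7i, miR-98 exceeded let-7e and let-7e exceeded let-7d in 4 of 6 goat libraries each. The mean of let-7c was 6099 ± 1209 CPM, that of let-7i 5153 ± 633 CPM and that of let-7d 1557 ± 282 CPM (SD, n = 6 goat libraries).

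The passenger strand let-7a-3p formed a tier of its own, 19.4-fold below let-7d by the goat means. It had 53.5, 161 and 41.3 CPM in the skimmed and 67.6, 14.6 and 143 CPM in the whole libraries, and the groups overlapped. Reads of the guide strand exceeded those of the passenger strand by 839-fold to 3285-fold in the skimmed and by 719-fold to 8474-fold in the whole libraries. The extremes of this arm ratio, 719-fold in library C and 8474-fold in library B, both fell within whole powder.

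Spread between goat libraries differed among members. The coefficient of variation (SD over mean, n = 6) was 7.02% for let-7f and 8.09% for let-7g, but 27.0% for let-7b, 23.6% for let-7e, 21.9% for miR-98 and 73.1% for let-7a-3p. The median over the 9 members with at least 1000 CPM was 18.1%, and over the 55 other miRNAs of that abundance it was 16.7%. Among all 2016 pairs that these 64 miRNAs form, the log2 ratio of let-7a-5p to let-7c had the 17th lowest SD over the goat libraries, at 0.09, where the median pair had 0.34. The log2 ratio of let-7c to let-7a-5p was -4.41 ± 0.14 in skimmed and -4.45 ± 0.02 in whole powder (SD, n = 3 each). These members have near-identical sequences, and the part of the counting in this closeness was not tested. The median SD over the 36 family pairs was 0.33, and let-7e with miR-98 reached the highest, 0.62.

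As a share of the family's own reads, let-7a-5p was the steadiest. It made up 45.1% of family reads in the bovine library, 46.4%, 45.5% and 48.2% in the skimmed and 46.1%, 46.3% and 43.7% in the whole libraries. With let-7f and let-7b it gave 92.9% of family reads in the bovine library, 88.4% to 89.5% in skimmed and 85.4% to 88.2% in whole goat powder. Let-7b took 21.5%, 20.4% and 15.0% in the skimmed and 16.7%, 18.7% and 15.1% in the whole libraries, and let-7f took 21.6%, 23.2% and 25.2% in the skimmed and 24.9%, 23.3% and 26.6% in the whole libraries. The 2 goat libraries highest in let-7b, skimmed A and B, were thus the lowest in let-7f, as shares of a fixed total tend to be, and the ratio of let-7b to let-7f ranged over the goat libraries from 0.996 in skimmed A down to 0.569 in whole C. Skimmed C stood apart within its group, with the lowest let-7b share and the highest let-7i share of all 7 libraries (2.27%).

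**Figure D2:**
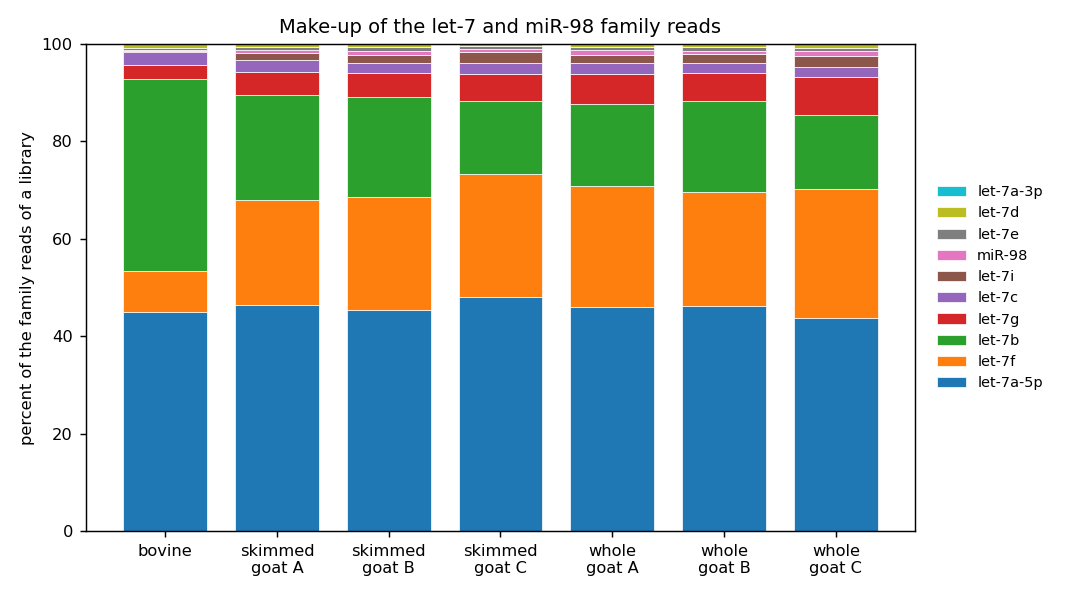
Make-up of the family reads of each library; each bar adds to 100% and each colour is a member. Let-7a-5p holds 43.7% to 48.2% of every bar, while let-7b takes 39.4% of the bovine bar against 15.0% to 21.5% of the goat bars.

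The share of family reads that would have to be moved between members to turn the make-up of a library into that of another was used to measure differences in make-up. It was 2.16% to 9.62% between skimmed and whole libraries (9 pairs), 2.47% to 6.97% within skimmed and 2.52% to 6.52% within whole powder (3 pairs each). The median between the goat powders, 4.63%, lay inside both within-powder ranges, though the largest distance of all goat pairs was between the powders. Skimmed C was nearer to whole A (3.07%) than to skimmed A (6.97%).

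In skimmed against whole goat powder, 8 of 10 members had an edgeR log2 fold change above 0 (all but let-7g and let-7d), beside 54.1% of all tested miRNAs. No member passed the threshold in edgeR. The family as a whole took 34.3%, 29.8% and 28.2% of miRNA reads in the skimmed and 27.5%, 26.8% and 23.4% in the whole libraries, without overlap. The difference of the means was 4.86 percentage points, and it was 3.09 without skimmed A. Let-7a-5p accounted for 2.58 of these points, let-7b for 1.52 and let-7f for 0.711, while let-7g stood 0.168 points lower in skimmed powder and the other members added at most 0.145 points each.

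By the quasi-likelihood test of edgeR, with p adjusted by Benjamini-Hochberg over 209 miRNAs, 0 of the 10 members passed an adjusted p of 0.05, where 0.478% of all tested miRNAs did; 3 members had an unadjusted p under 0.05, as 10.5% of all tested miRNAs had. Let-7a-5p averaged 143485 ± 13674 CPM in skimmed and 117668 ± 13203 CPM in whole powder (SD, n = 3 each), a log2 fold change of 0.38 ± 0.15 (SE, adjusted p = 0.38 in edgeR). All 3 skimmed values lay above all 3 whole values. Let-7c averaged 6822 ± 1339 CPM in skimmed and 5375 ± 539 CPM in whole powder, with a log2 fold change of 0.44 ± 0.17 (adjusted p = 0.35 in edgeR), and its groups did not overlap either, since the lowest skimmed value was 5923 CPM and the highest whole value 5764 CPM. Let-7b averaged 58957 ± 15822 CPM in skimmed and 43748 ± 7521 CPM in whole powder, with a log2 fold change of 0.54 ± 0.23 (adjusted p = 0.44 in edgeR). Its groups overlapped through skimmed C, which lay below whole A and whole B.

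Unadjusted p in edgeR was 0.030 for let-7c, 0.034 for let-7a-5p and 0.047 for let-7b. All 3 were higher in skimmed, as 5.74% of all tested miRNAs were at that threshold. Without skimmed A the log2 fold change of let-7a-5p was 0.24, that of let-7b 0.28 and that of let-7c 0.21, and 0 members then had an unadjusted p under 0.05. The same count was 0 without whole C and with library totals in place of TMM scaling, 1 without skimmed B, whole A or whole B, and 3 without skimmed C. DESeq2's Wald test called 1 member, let-7a-5p (adjusted p = 0.048), among 6.88% of the miRNAs it was run on, and limma-voom called 0 members, with 0.478% of all tested miRNAs called. In CPM the groups stood apart for 3 of 10 members, let-7a-5p, let-7c and let-7f, each higher in skimmed, beside 9.57% of all tested miRNAs higher and 10.5% lower; 3 libraries against 3 allow no exact permutation p below 0.1.

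None of the remaining members had an unadjusted p under 0.05 in edgeR. Let-7f had a log2 fold change of 0.24 ± 0.12, let-7i of 0.24 ± 0.13, let-7e of 0.35 ± 0.23 and miR-98 of 0.14 ± 0.26 (SE, adjusted p of 0.52, 0.52, 0.70 and 0.96 in edgeR). Values below 0 were found for let-7g, at -0.06 ± 0.12, and let-7d, at -0.12 ± 0.22 (adjusted p = 0.96 each in edgeR). The passenger strand let-7a-3p had 0.26 ± 1.09, the widest error of the family. In all, 8 of 10 members had values above 0, as 54.1% of all tested miRNAs did. The median over the members was 0.25 beside 0.03 over all tested miRNAs. Scaled to the family total, 3 of 10 members had values above 0. The median was then -0.087 over the members and -0.30 over all tested miRNAs. Some cell type markers differed between the powders too, where 9.57% of all tested miRNAs were higher and 10.5% lower in CPM without overlap. Of the epithelial list, miR-200c and miR-375 were higher in skimmed powder without overlap (means of 40434 against 34336 and 30579 against 25161 CPM). MiR-200a, miR-141 and miR-30a-5p were lower without overlap, miR-30a-5p at 46018 against 72635 CPM. The other epithelial markers overlapped. Of the leukocyte list, miR-223 averaged 1610 CPM in skimmed and 1174 CPM in whole powder, without overlap, while miR-150 lay the other way, at 0.0402 CPM in skimmed and 13.6 CPM in whole powder, also without overlap, and miR-142-3p, miR-142-5p and miR-155 overlapped. The muscle marker miR-1 had 37.2 to 120 CPM in skimmed and 0.305 to 27.1 CPM in whole powder. The part of these cell types in the family's values was not tested.

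**Figure D3:**
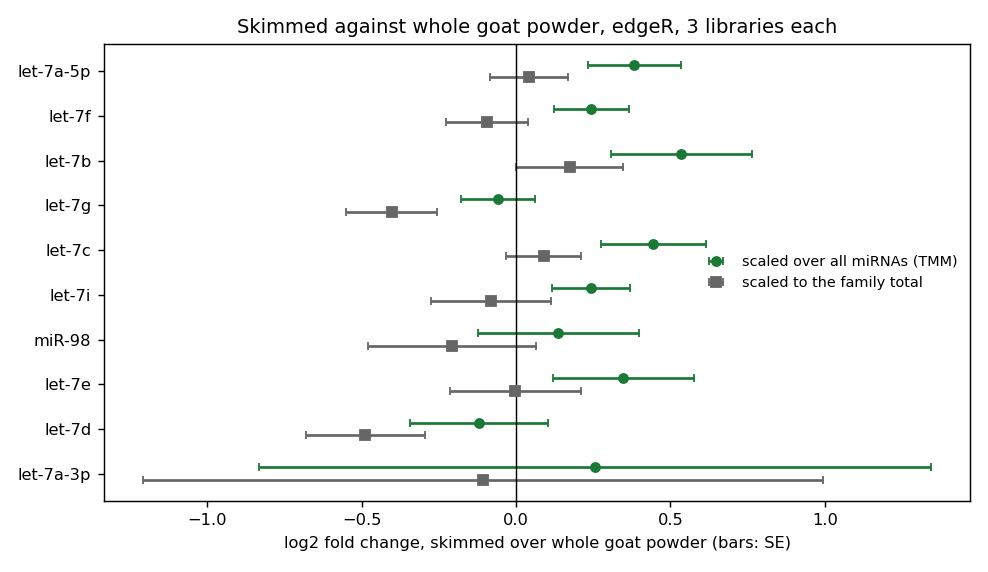
Log2 fold change of each member in skimmed over whole goat powder in edgeR, with SE bars, scaled over all miRNAs (circles) and to the family total (squares). Scaled over all miRNAs, 8 of 10 members lie above 0, and scaled to the family total, 3 of 10 do. The median over all tested miRNAs is 0.03 in the first scaling and -0.30 in the second.

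Scaling to the family total asked whether members moved relative to each other. Let-7g then had a log2 fold change of -0.40 ± 0.15 (SE, adjusted p = 0.26 in edgeR) and let-7d of -0.49 ± 0.19 (adjusted p = 0.27 in edgeR), and 0 members passed, where 0.957% of all tested miRNAs did. Both had an unadjusted p under 0.05, 2 of 10 members, and 16.3% of all tested miRNAs were lower at that threshold. Let-7g made up 4.70%, 5.01% and 5.44% of family reads in the skimmed and 6.25%, 5.89% and 7.88% in the whole libraries. Let-7d made up 0.513%, 0.513% and 0.365% in the skimmed and 0.647%, 0.569% and 0.735% in the whole libraries. Both were lower in all skimmed libraries, 2 of 10 members, and 21.5% of all tested miRNAs were likewise lower per family read, while 0 members and 2.87% of all tested miRNAs were higher in all of them. Of the 36 pairs of members with at least 1000 CPM, 8 had ratios that did not overlap between the powders, beside 33.0% of all 2016 pairs of such miRNAs.

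In the bovine powder the family total lay inside the goat range while its make-up differed. The family took 29.4% of its miRNA reads, inside the goat range of 23.4% to 34.3%, and let-7a-5p at 132424 CPM (exact 95% Poisson interval 132125 to 132724, counting error only) lay inside the goat range as well. Let-7b took the place that let-7f held in goat. With 1 bovine library no test was made, and species, product and library cannot be told apart.

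Let-7b reached 115600 CPM in the bovine library, against 35382 to 73732 CPM over the 6 goat libraries, and was the second most abundant of all its miRNAs. Let-7f stood at 24602 CPM in the bovine library, against 62233 to 74046 CPM in goat. In shares of family reads let-7b held 39.4% in the bovine library and 15.0% to 21.5% in goat, and let-7f 8.38% in the bovine library and 21.6% to 26.6% in goat. The ratio of let-7b to let-7f was therefore 4.70 in the bovine library and at most 0.996 in goat. The sum of both shares was 47.8% in the bovine library and 40.2% to 43.6% in goat.

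Among members other than the passenger strand, let-7i was the lowest relative to goat, with 514 CPM (exact 95% Poisson interval 495 to 533) against 4699 to 6411 CPM in goat, so that the bovine value was 0.100 of the goat mean. MiR-98 had 775 CPM in the bovine library against 1413 to 2684 CPM in goat, and let-7g 8527 CPM against 14918 to 18474 CPM. Let-7d lay above goat, at 2279 CPM in the bovine library against 1030 to 1779 CPM in goat. Let-7c, at 7458 CPM in the bovine library, and let-7e, at 1434 CPM, fell inside the goat ranges of 4760 to 8362 CPM and 1392 to 2538 CPM. The bovine order of members thus ran let-7a-5p, let-7b, let-7f, let-7g, let-7c, let-7d, let-7e, miR-98 and let-7i.

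**Figure D4:**
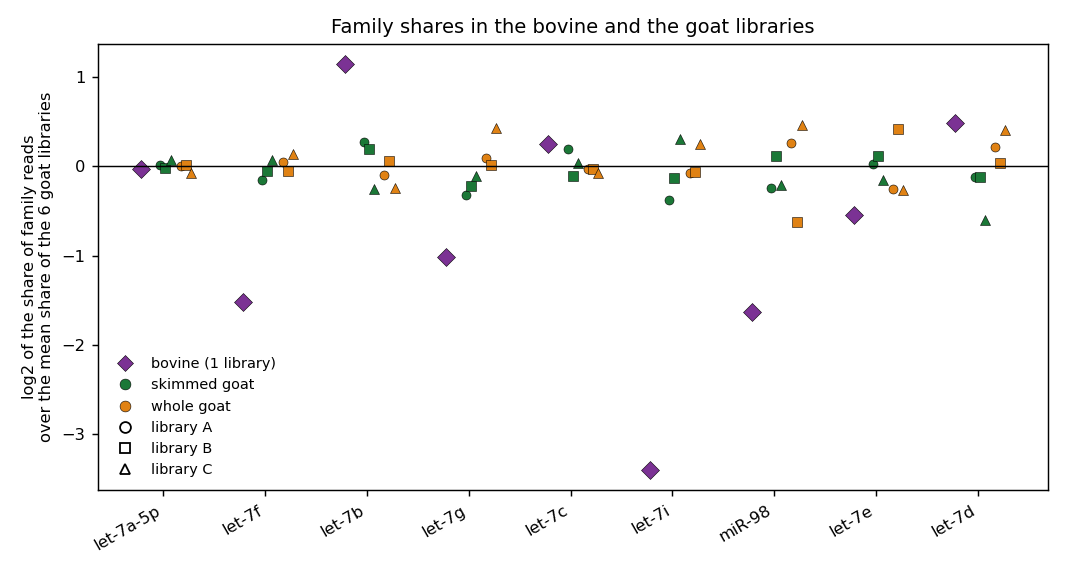
Share of family reads of each member, as the log2 of its ratio to the mean share of the 6 goat libraries, for the bovine library (diamonds) and the goat libraries; let-7a-3p is left out. The bovine point lies near 0 for let-7a-5p, above all goat points for let-7b, let-7c and let-7d, and below all of them for let-7f, let-7g, let-7i, miR-98 and let-7e.

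The passenger strand let-7a-3p was close to absent from the bovine library. It had 2.64 estimated reads there, or 0.466 CPM, beside 148 to 1706 reads in the goat libraries. From estimated reads rounded to whole numbers (3 against 4461) the ratio of bovine to pooled goat was 0.00642. Its exact 95% interval for counting error was 0.00132 to 0.0188, which does not cover how reads were split between names. The guide let-7a-5p lay inside the goat range in the same library, and the arm ratio there was 284378. Such a low value was not particular to this arm, whose ratio of bovine to goat mean was 0.0058. In the leukocyte list that ratio was 0.0055 for miR-155, 0.0082 for miR-223, 0.36 for miR-142-5p, and 0 for miR-142-3p and miR-150.

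Departures from the goat range were common over the whole table. Of all 10 members, 2 lay above it in bovine powder and 5 below, where 20.1% of all tested miRNAs lay above, 48.3% below and 68.4% outside it in all. Of the 9 members with at least 1000 CPM in goat, 6 lay outside it, and of all 64 such miRNAs 76.6% did, 26.6% above and 50.0% below. More than 2-fold above the goat mean was 1 of 9 members, let-7b, beside 9.38% of these miRNAs, and more than 2-fold below were let-7f, let-7i and miR-98, beside 31.2%. Directions in CPM also hung on scaling: with DESeq2 size factors from the 181 miRNAs present in all 7 libraries, the log2 ratios of bovine to goat of the 64 miRNAs shifted upwards by a median of 1.09. Let-7a-5p (1.11), let-7c (1.38), let-7e (0.59) and let-7g (0.16) then lay above the goat range and miR-98 (-0.46) inside it, while let-7b (2.26) and let-7d (1.64) stayed above and let-7f (-0.38), let-7i (-2.24) and let-7a-3p below. Shares of the family total are not touched by scaling. The red blood cell sum, nearly all miR-16b, and the leukocyte sum were low in bovine powder, as given above. The part of these cell types in the make-up was not tested.

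Genes of the family lie in small clusters, and neighbours can be transcribed together. In the RefSeq annotation of the goat assembly ARS1.2, the 10 rows matched 9 genes: MIRLET7A lies next to MIRLET7B, MIRLET7F next to MIRLET7D, MIRLET7C between MIR125B and MIR99A, and MIRLET7E next to MIR99B, while MIRLET7G overlaps WDR82, a gene for a subunit of a histone methyltransferase complex, and MIR98 overlaps HUWE1, a ubiquitin ligase gene. In mammals more than 1 gene gives mature let-7a and let-7f, so a mature level does not stand for a single locus. The annotation was used for names and neighbours, since the sources used here give no build for the counts.

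The neighbours let-7c and miR-99a-5p were near parity in whole powder, and let-7c exceeded its partner by more in skimmed powder. Their ratio was 0.919 in the bovine library, 2.08, 1.59 and 1.53 in the skimmed and 1.17, 1.04 and 1.00 in the whole libraries. Let-7c over miR-125b, its neighbour on the other side, gave 0.801 in the bovine library, 5.21, 3.13 and 4.25 in the skimmed and 2.25, 1.59 and 2.14 in the whole libraries. Let-7e over miR-99b gave 1.05 in the bovine library, 3.51, 3.56 and 2.31 in the skimmed and 2.10, 2.22 and 1.28 in the whole libraries. These 3 ratios were higher in all skimmed than in all whole libraries, by means of 0.69, 1.06 and 0.76 on the log2 scale. For let-7d over let-7f the order was the opposite, with 0.0237, 0.0221 and 0.0145 in the skimmed and 0.0260, 0.0245 and 0.0277 in the whole libraries, and with 0.0926 in the bovine library. Let-7b over let-7a-5p gave 0.463, 0.449 and 0.311 in the skimmed and 0.362, 0.404 and 0.345 in the whole libraries, which overlapped, and 0.873 in the bovine library.

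**Figure D5:**
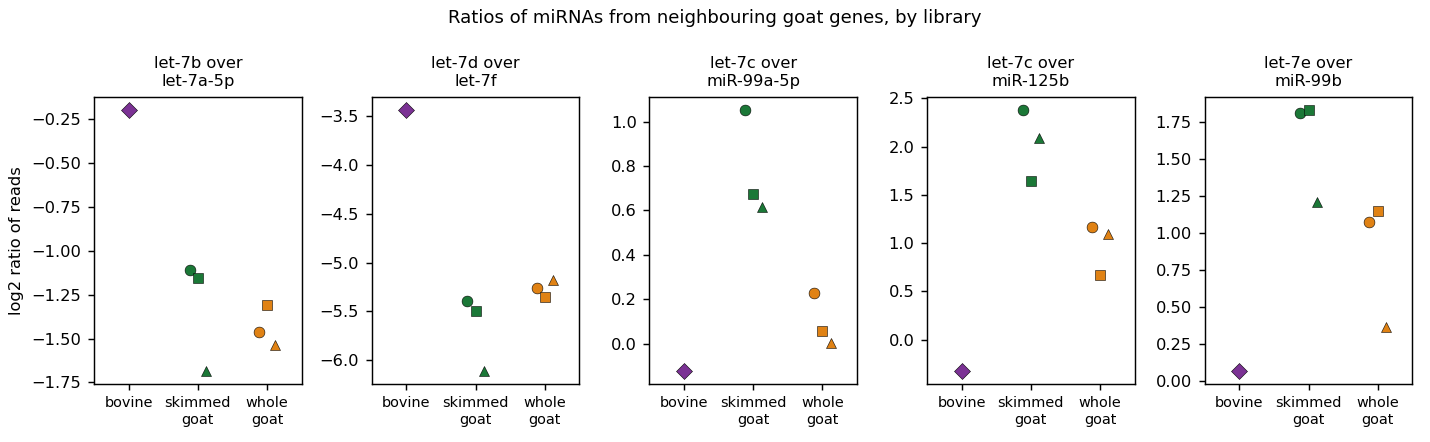
Log2 ratio of reads of miRNAs whose goat genes are neighbours, for the bovine, skimmed and whole libraries (circles, squares and triangles are libraries A, B and C; each panel has its own scale). Skimmed and whole libraries do not overlap for let-7d over let-7f, let-7c over miR-99a-5p, let-7c over miR-125b or let-7e over miR-99b, and do overlap for let-7b over let-7a-5p.

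Of 5 neighbour pairs, 4 thus did not overlap between the goat powders, beside 33.0% of pairs of abundant miRNAs, a background that leaves miR-99b out because it averaged under 1000 CPM in goat. The pairs are not independent: let-7c is shared by those with miR-99a-5p and miR-125b, which were both lower in all skimmed libraries. The cluster partners were miR-99a-5p, miR-99b, miR-100, miR-125a and miR-125b. Of these, miR-125a had no match in the goat annotation, and MIR100 was not listed next to a family gene. The cluster partners themselves had values below 0 in skimmed against whole powder, with 0 of 5 past the threshold in edgeR, beside 0.478% of all tested miRNAs, and 3 of 5 at an unadjusted p under 0.05, beside 10.5%. DESeq2's Wald test called 2 of 5 lower, miR-125a and miR-125b, beside 6.88% of the miRNAs it was run on called in either direction (10 higher and 12 lower). MiR-125a had 3354, 2494 and 2271 CPM in the skimmed and 4687, 5902 and 3797 CPM in the whole libraries, a log2 fold change of -0.72 ± 0.21 (SE, adjusted p = 0.12 in edgeR). MiR-99a-5p had 4028, 3716 and 4039 CPM in the skimmed and 4929, 5387 and 4756 CPM in the whole libraries, with -0.26 ± 0.11 (adjusted p = 0.38 in edgeR). In the bovine library miR-125a stood at 17047 CPM and miR-125b at 9309 CPM, against 2271 to 5902 and 1455 to 3516 CPM over the goat libraries.

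The miRNAs outside the family whose pattern was most like that of let-7a-5p were sought among the 55 others with at least 1000 CPM, by the root mean square difference of centred log2 CPM over the 6 goat libraries. They were miR-30c (0.11), miR-375 (0.12) and miR-181a (0.12), where the median miRNA had 0.28. Within the family let-7c was nearer (0.08), let-7f was as near (0.12), and miR-98 was farther than that median (0.39). For let-7b the nearest were miR-30c (0.14), miR-320a (0.20) and miR-224 (0.21), against a median of 0.42. All values share the same 6 libraries and their totals, and the list is a description of these libraries.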

How the data were processed

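Per the labels' protocols, vesicle RNA was extracted with a mirVana kit, and gel-selected small RNA libraries were sequenced as single-end reads. The deposited tables hold estimated counts per mature miRNA, not normalized, under bovine names; the sources used here name no aligner, counter, miRNA reference or build, nor how goat reads or reads matching several names were handled. CPM was computed here over all 364 miRNAs. Levels compared between members are shares of reads.

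Estimated counts were rounded and tested, skimmed against whole, with edgeR 4.0.16 in R 4.3.3 (default low-count filter, 209 miRNAs, TMM factors 0.928 to 1.067, quasi-likelihood test, Benjamini-Hochberg adjustment). DESeq2 1.42.0, limma-voom (limma 3.58.1), other scalings, no filter, a replicate block and leaving out each library were alternatives. SE is the log2 fold change over the root of F. The fit was tested on simulated data with 40 of 209 miRNAs changed. The simulated folds were larger than those fitted for the members in edgeR, so changes of the members' size were not covered. Intervals are exact at 95% and cover counting error only, since reads carry no molecular identifiers and PCR copies are not independent molecules.

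Neighbouring genes come from RefSeq's table of goat assembly ARS1.2 (10 of 10 rows matched, to 9 genes). Text names all 10 members, 5 cluster partners, marker lists and the 3 miRNAs nearest in pattern to let-7a-5p and to let-7b. Members and lists were chosen with earlier results of these data known. No label gives a batch.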

Additional observations from a re-analysis of the deposited data

How the results depend on the processing

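Of all miRNAs, 1 passed in skimmed against whole powder in edgeR, and 0 did with DESeq2 size factors, with library totals or with the replicate block, 2 with no filter, 22 with DESeq2's Wald test, 1 with limma-voom and 0 to 1 when a library was left out (1 only without skimmed A). None of these calls was a family member except let-7a-5p in DESeq2's Wald test, at a log2 fold change of 0.34, and over all alternatives its adjusted p went between 0.048 and 0.97. Scaled to the family total, values changed sign for let-7a-3p (-0.11), let-7e (-0.0022), let-7f (-0.094), let-7i (-0.081) and miR-98 (-0.21). Over the goat libraries, let-7a-5p, let-7f and let-7b made up 85.4% to 89.5% of that total. With a library left out, log2 fold changes went between -0.57 and 1.17 for let-7a-3p, -0.35 and 0.071 for let-7d, -0.15 and 0.020 for let-7g and -0.14 and 0.29 for miR-98, and the cause was not tested; the other 6 members kept their sign. The family share stayed higher in skimmed powder under all alternatives run, by 3.09 to 6.15 points. With DESeq2 size factors over 7 libraries, log2 ratios of bovine to goat mean changed sign for let-7e and let-7g. That of let-7e went from -0.50 to 0.59, and that of let-7g from -0.94 to 0.16. Letters A to C are shared by the goat powders, but same-letter libraries deviated together with correlations of only 0.20, 0.13 and 0.058 across all tested miRNAs, so the letters were not taken as pairs. Over miRNAs of at least 100 CPM these correlations were -0.084, 0.080 and 0.38. Each library correlated best with its own letter over all tested miRNAs, a hint from the data and not the design, but not over those of at least 100 CPM. With the replicate block let-7b had a log2 fold change of 0.50 ± 0.14 (SE, adjusted p = 0.19 in edgeR).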
